A study of Saccharomyces cerevisiae with 3 samples.

Results

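The genes described here encode proteins and enzymes of the yeast cell wall. Of 35 genes named for their roles in the wall, 34 were matched by symbol to spots of the array, and all 34 had values on at least 2 of the 3 arrays, among 5479 such genes in all. GAS1 was not matched and was not analysed here. The 34 genes were divided by role into 13 mannoproteins, 13 enzymes of glucan synthesis and remodelling, 6 chitin enzymes and 2 yapsins. Each gene had 2 spots on the array.

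Each array set a Saccharomyces cerevisiae culture of the W303 background with WAR1 as War1K762R, named for an exchange of lysine for arginine, against a W303 culture with WAR1 as War1. Both forms were expressed from the galactose-inducible GAL1 promoter, so neither strain is a model of WAR1 under its own promoter. Both cultures grew at 30 °C in rich medium with 2% raffinose to an OD600 of 0.8 and were harvested 1 h after 2% galactose was added. The labels name no weak acid, and the labels used here do not say whether the chromosomal WAR1 copy was still present. By the source names, Cy5 marked War1K762R on replicates 1 and 2, and Cy3 marked it on replicate 3, where the dyes were swapped. The labels conflict here: the treatment text of the Cy3 channel names the K762R form on replicates 1 and 2, which would place that form in both channels, and the source names were followed. The signs of those arrays and the existence of the dye swap rest on that choice.

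Values are log2 ratios of War1K762R over War1 after the median spot of an array was set to 0. That direction is likely and not certain, because the labels conflict on the Cy3 channel, as above, and do not give which dye was on top of the scanner's ratio; Cy5 was taken to be. With Cy3 on top, every sign below turns. The arrays hold ratios and no levels, so the wall genes cannot be ranked by abundance and the strain's identity was not checked from its markers. The 3 arrays had values for 7367 to 12277 of 13056 spots, with the fewest on replicate 3, and the mean ratio was tested against 0 with limma. All adjusted p-values are from limma with Benjamini-Hochberg adjustment over the 5479 genes, and errors are the SD between arrays. PDR12, the carboxylate exporter gene that War1 activates, had ratios of 1.41, 0.95 and 0.52 on replicates 1, 2 and 3 and passed the test (mean 0.96, adjusted p = 0.00764), a call lost in 3 alternatives: leaving out replicate 1 (0.73, adjusted p = 0.181), fitting a dye term (0.85, adjusted p = 0.105) and turning the sign of replicate 3 (0.61, adjusted p = 0.504).

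The yeast cell wall has an inner layer of beta-glucan fibres and chitin and an outer layer of heavily mannosylated proteins. Glucan and chitin are made at the plasma membrane by Fks1 or its homologue Gsc2 and by the chitin synthases, and are then cut, lengthened and cross-linked outside the membrane. Mannoproteins are joined to glucan through a remnant of a GPI anchor or, in the PIR family, directly. Damage to the wall is sensed by the cell wall integrity pathway, whose kinase Slt2 activates many wall genes through Rlm1. The wall is also known to respond to weak organic acids, for which SPI1 is a described example.

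The comparison asks whether wall transcripts differ between the War1K762R strain and the War1 strain. Of the 34 wall genes, 0 passed the test in either direction, against 2.14% of all genes tested (limma, adjusted p under 0.05), and the lowest adjusted p was 0.181, for SCW4. At an unadjusted p under 0.05, 8 wall genes were higher with War1K762R and 0 were lower. Among all genes tested 9.13% were higher at that level and 7.76% lower, and among the 3579 genes on all 3 arrays, which include 33 of the 34 wall genes, 11.8% were higher and 2.71% lower. The count of 8 was 6, 2 and 7 without replicates 1, 2 and 3 in turn, 3 with centring on the genes on all 3 arrays, 1 without centring, 1 with a dye term and 10 with arrays scaled to the same median absolute deviation. With the sign of replicate 3 turned, 1 wall gene was higher and 2 were lower at that level, and the count of lower genes was 0 in the other alternatives. Counts over all genes at that level, in either direction, also moved, from 925 of 5479. They were 395 of 3580, 322 of 3582 and 943 of 5475 without replicates 1, 2 and 3. Centring on the genes on all 3 arrays gave 990 of 5479, no centring 356 of 5479 and a dye term 449 of 3579. Scaled arrays gave 969 of 5479, and the turned sign of replicate 3 gave 520 of 5479. The mean ratio was above 0 for 27 wall genes and below 0 for 7, and the mean was above 0 for 50% of all genes tested and for 60% of the genes on all 3 arrays. The median mean ratio of the 34 genes was 0.19, against 0.05 for the genes on all 3 arrays and 0.00 for all genes tested.

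On the arrays taken singly, the median of the wall genes was 0.09, 0.25 and 0.11 in replicates 1, 2 and 3. The genes on all 3 arrays had medians of 0.07, 0.06 and 0.01. Replicate 1 therefore set the wall genes close to the other genes, and replicate 2 set them furthest above. Of the 33 wall genes on all 3 arrays, 14 were positive on every array, against 24.7% of such genes in all, and 1 was negative on every array, against 13.5%. The 95% intervals of the moderated fit for the 34 means ran from −0.42 at the lowest to 0.97 at the highest. These ends combine the mean of a gene with the width of its interval, and that width rests on a variance moderated over all genes. Each interval is for 1 gene with no adjustment for their number.

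**Figure D1:**
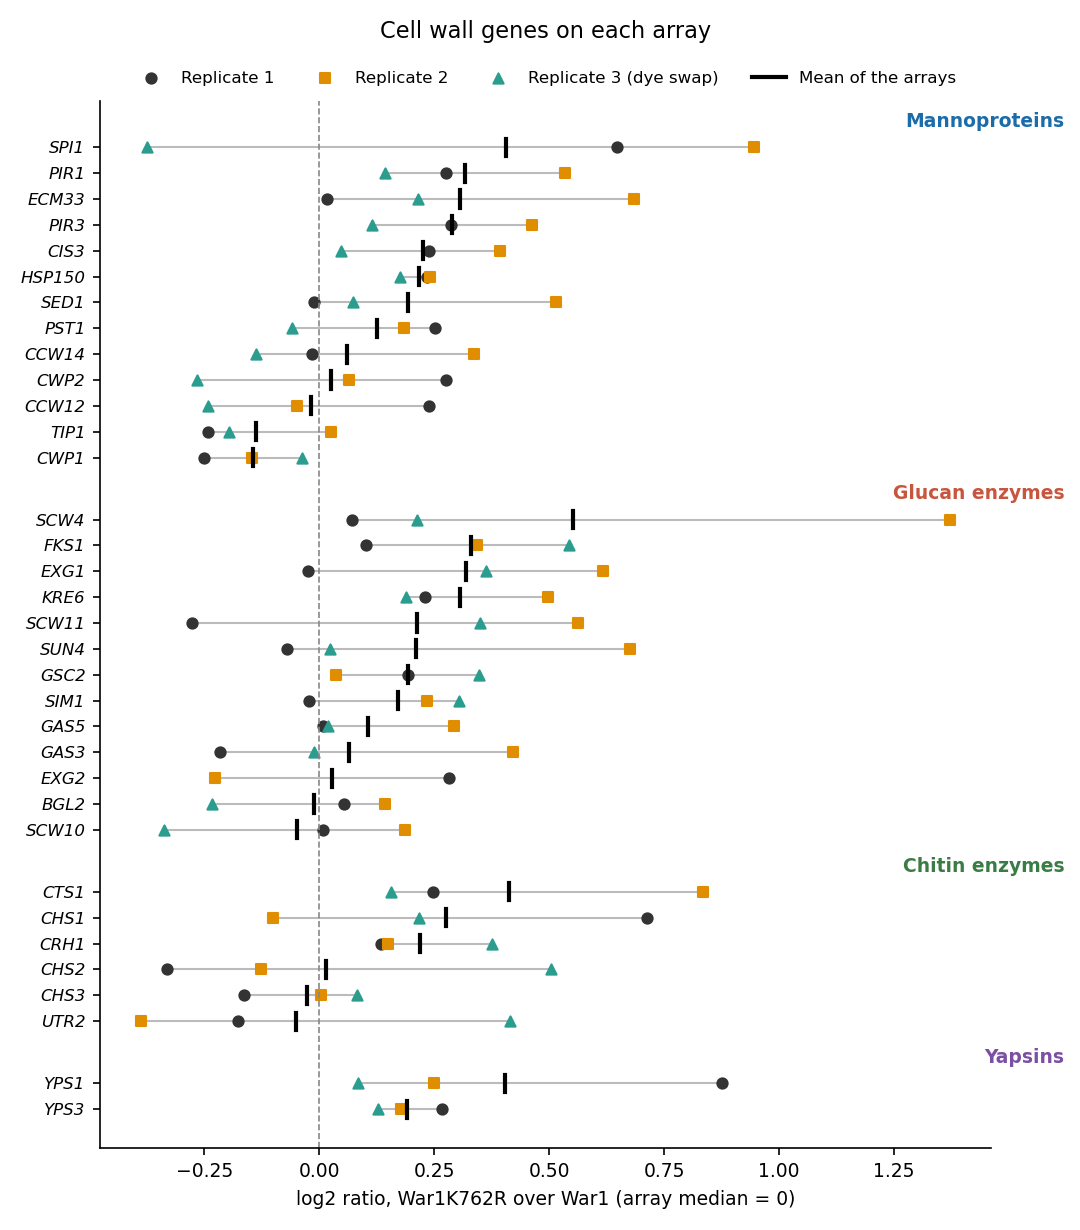
The x axis gives the log2 ratio of War1K762R over War1 and each line of the y axis is 1 of the 34 wall genes, grouped by class. Symbols are the 3 arrays and black ticks their means; SCW4, SPI1 and YPS1 each owe their mean mostly to 1 or 2 arrays, while HSP150 and YPS3 have 3 values close together.

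Among the mannoproteins, the 4 genes of the PIR family had similar ratios. PIR1, whose product is needed for wall stability, had ratios of 0.28, 0.54 and 0.14 in replicates 1, 2 and 3 (mean 0.32 ± 0.20, SD, n = 3, 95% interval 0.03 to 0.60, adjusted p = 0.246). Its homologue PIR3 had 0.29, 0.46 and 0.11 (mean 0.29 ± 0.17, adjusted p = 0.283). CIS3, which encodes another PIR protein, had 0.24, 0.39 and 0.05, and HSP150, whose secreted product is induced by heat shock, had 0.23, 0.24 and 0.18. All 4 were positive on all 3 arrays, replicate 3 was the lowest array for each of them, and none passed the test (adjusted p = 0.401 for HSP150). For CIS3 the replicate 3 value averaged 2 spots of opposite sign, −0.14 and 0.24. HSP150 had the smallest spread of the 34 genes, with an SD of 0.04 around a mean of 0.22. PIR1 lies beside PIR3 on chromosome XI, and CIS3, HSP150 and PIR5 are consecutive genes on chromosome X in the RefSeq gene order. PIR5, outside the 34 genes, had 0.31, 0.60 and −0.06 (mean 0.28, adjusted p = 0.342). The PIR proteins share repeats, and cross-hybridisation between their spots was not checked.

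The 9 mannoproteins with a GPI anchor signal had a lower median, 0.06, and a wider range. SPI1, a GPI wall protein gene known to be induced by weak acids and on entry into stationary phase, had 0.65 and 0.95 in replicates 1 and 2 and −0.37 in replicate 3. The dye swap thus had the opposite sign to the other 2 arrays, and the mean of 0.41 ± 0.69 did not pass (95% interval −0.01 to 0.82, adjusted p = 0.306). Both spots gave this picture, with 0.71 and 0.59 in replicate 1, 0.97 and 0.92 in replicate 2, and −0.42 and −0.33 in replicate 3. Without replicate 3, SPI1 was the only wall gene to pass (mean 0.80, adjusted p = 0.0351). That setting holds only arrays with War1K762R in Cy5, so that strain and dye cannot be told apart in it.

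ECM33, whose GPI protein is needed for an ordered outer layer, had 0.02, 0.68 and 0.21 (mean 0.31 ± 0.34, adjusted p = 0.306). SED1, a major wall protein gene of stationary phase, had −0.01, 0.52 and 0.07 (mean 0.19). For both genes replicate 2 stood above the other arrays. PST1, a target of the cell wall integrity pathway, had 0.25, 0.18 and −0.06, with a mean of 0.13. CCW14 had −0.02, 0.34 and −0.14, CWP2 had 0.28, 0.06 and −0.27, and CCW12, an abundant wall protein gene, had 0.24, −0.05 and −0.24. These 3 genes lay on both sides of 0, with means of 0.06, 0.02 and −0.02.

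The lowest mannoproteins were CWP1 and TIP1. CWP1, which encodes a wall protein linked to glucan, had −0.25, −0.15 and −0.04 (mean −0.14 ± 0.11, 95% interval −0.42 to 0.13, adjusted p = 0.6). It was the only 1 of the 33 wall genes on all 3 arrays that was negative on each of them. TIP1, a cold-induced mannoprotein gene, had −0.24, 0.03 and −0.20 (mean −0.14 ± 0.14, adjusted p = 0.632), and its 2 spots in replicate 3 lay 0.50 apart, the widest gap between spots of any wall gene. CWP1 and CWP2 are neighbours on chromosome XI, and their values did not run alike on replicate 1, at −0.25 and 0.28.

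The glucan synthesis genes FKS1, GSC2 and KRE6 were positive on all 3 arrays. FKS1, the catalytic subunit of beta-glucan synthase, had 0.10, 0.34 and 0.54 in replicates 1, 2 and 3 (mean 0.33 ± 0.22, 95% interval 0.04 to 0.62, adjusted p = 0.235). GSC2, its stress-induced homologue, had 0.19, 0.04 and 0.35 (mean 0.19 ± 0.15, adjusted p = 0.475). KRE6, needed for the branched form of glucan to which GPI proteins are joined, had 0.23, 0.50 and 0.19 (mean 0.31 ± 0.17, adjusted p = 0.255). FKS1 and GSC2 were highest on the dye swap, unlike the PIR genes. Because they encode closely similar proteins, their spots may share signal, which was not checked.

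Among the enzymes that cut or rejoin glucan, SCW4 had the highest mean of all 34 wall genes and rested on replicate 2. It encodes a wall protein similar to glucanases and had 0.07, 1.37 and 0.21 (mean 0.55 ± 0.71, a 1.47-fold ratio, 95% interval 0.13 to 0.97, adjusted p = 0.181). Its 2 spots in replicate 2 gave 1.38 and 1.36, so the high value was not that of 1 spot. Among the 3579 genes on all 3 arrays it was the 16th highest on replicate 2. Without replicate 2 the mean was 0.14 (adjusted p = 0.91). SCW10, its close homologue, had 0.01, 0.19 and −0.34 and a mean of −0.05 ± 0.27 (adjusted p = 0.894).

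EXG1, the major exoglucanase gene, had −0.02, 0.62 and 0.36 (mean 0.32 ± 0.32, adjusted p = 0.28). SCW11, a glucanase gene of daughter cells, had −0.28, 0.56 and 0.35, with a mean of 0.21. SUN4 and SIM1, of a family with roles in septation, had means of 0.21 and 0.17, and SUN4 reached 0.68 on replicate 2 against −0.07 and 0.02 on replicates 1 and 3. Replicate 2 was the highest array for EXG1, SCW11 and SUN4 alike. The glucan elongation genes GAS5 and GAS3 had means of 0.11 and 0.07, BGL2, a major glucan transferase gene, had 0.05, 0.14 and −0.23 (mean −0.01 ± 0.20, adjusted p = 0.97), and EXG2 had 0.28 and −0.23 on replicates 1 and 2 and no value on replicate 3 (mean 0.03 ± 0.36, SD, n = 2, adjusted p = 0.95). For these 4 genes the mean was smaller in size than the SD between arrays, as it also was for SCW4, SCW10, EXG1, SCW11 and SUN4. GAS5 was nevertheless positive on all 3 arrays, at 0.01, 0.29 and 0.02. Its 2 spots had opposite signs on replicate 1 (0.08 and −0.06) and on replicate 3 (0.08 and −0.04).

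The chitin enzymes did not share a direction. CTS1, the endochitinase gene whose product frees the daughter cell from its mother, had 0.25, 0.84 and 0.16 in replicates 1, 2 and 3 and was positive on all of them (mean 0.41 ± 0.37, 95% interval 0.09 to 0.73, adjusted p = 0.184). Without replicate 2 its mean was 0.20 (adjusted p = 0.84). CRH1, a transglycosylase gene that joins chitin to glucan, had 0.13, 0.15 and 0.38 (mean 0.22 ± 0.14, adjusted p = 0.408). UTR2, its homologue, had −0.18, −0.39 and 0.41 (mean −0.05 ± 0.42, adjusted p = 0.901), so that only replicate 3 was positive.

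Of the 3 chitin synthase genes, CHS1, for repair of the birth scar, had 0.71, −0.10 and 0.22 (mean 0.28 ± 0.41, adjusted p = 0.376). CHS2, for the primary septum, had −0.33, −0.13 and 0.50 (mean 0.02 ± 0.43, adjusted p = 0.967), with only 1 of its 2 spots measured on replicate 3. CHS3, for the chitin of the lateral wall and the bud neck ring, had −0.16, 0.00 and 0.08 (mean −0.03 ± 0.13, adjusted p = 0.937). All 6 chitin enzymes were positive on replicate 3, whereas 3 of 6 were positive on replicate 1 and 3 of 6 on replicate 2.

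The yapsins are GPI-anchored proteases that process wall proteins at the cell surface. YPS1 had 0.88, 0.25 and 0.08 (mean 0.40 ± 0.42, 95% interval 0.07 to 0.73, adjusted p = 0.21), so replicate 1 carried most of its mean, which was 0.17 without it. YPS3 had 0.27, 0.18 and 0.13 (mean 0.19 ± 0.07, adjusted p = 0.467). Both were positive on all 3 arrays, and they are neighbours on chromosome XII.

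Set beside each other, mannoproteins and glucan enzymes had the same median mean ratio to 2 decimals, 0.19, and chitin enzymes had 0.12. Without replicate 2 the mannoproteins had 0.10 and the glucan enzymes 0.09, without replicate 1 the glucan enzymes had 0.31, and without replicate 3 the chitin enzymes had 0.03. No test was run on these medians, since the genes were chosen with results known. The arrays ordered the classes differently. The mannoproteins had medians of 0.24, 0.34 and −0.04 in replicates 1, 2 and 3, the glucan enzymes 0.01, 0.34 and 0.20, and the chitin enzymes −0.01, −0.05 and 0.30. The median of the mannoproteins minus that of the glucan enzymes was 0.23, −0.01 and −0.24 on the 3 arrays, and minus that of the chitin enzymes it was 0.25, 0.39 and −0.33. Glucan enzymes minus chitin enzymes was 0.02, 0.39 and −0.10. Each of these differences changed sign between arrays, so no class stood above another on every array. The differences from the chitin enzymes were positive on replicates 1 and 2 and negative only on replicate 3, the dye swap.

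**Figure D2:**
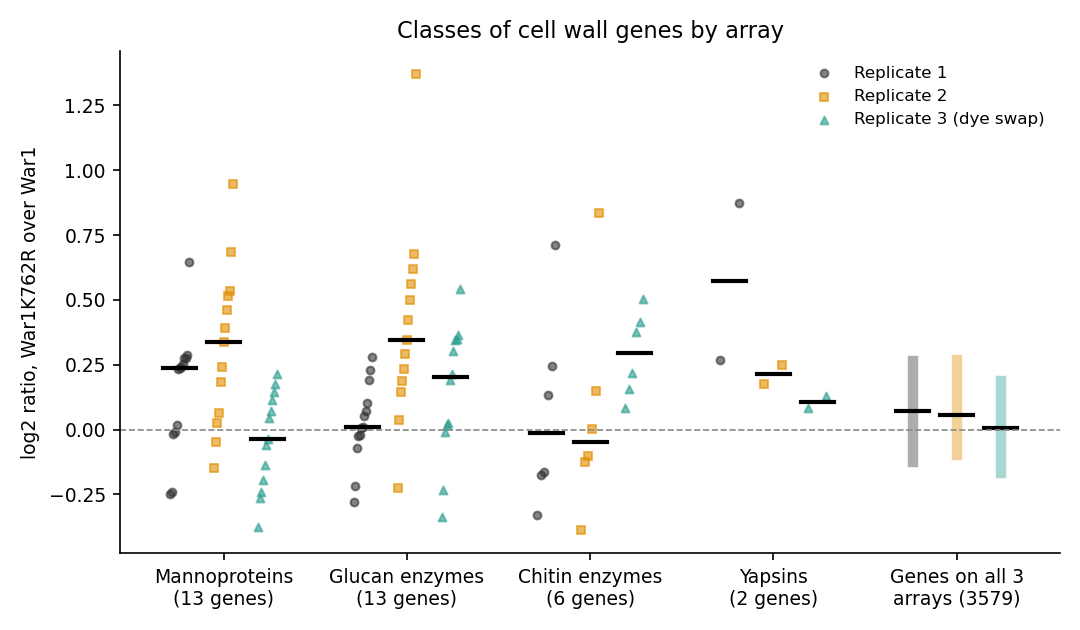
The y axis gives the log2 ratio of War1K762R over War1 for each wall gene, by class on the x axis and by array within a class. Black bars are medians and the bands at the right span the quartiles of the 3579 genes on all 3 arrays; on the dye swap the mannoproteins have a median of −0.04 and the chitin enzymes one of 0.30.

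In 7 of the 33 genes on all 3 arrays, replicates 1 and 2 had one sign and replicate 3 the other, a share near the 25.1% of all such genes. The 7 were SPI1, PST1, CWP2, BGL2 and SCW10, positive only in replicates 1 and 2, and UTR2 and CHS2, positive only in replicate 3. For SPI1 the mean of replicates 1 and 2 exceeded replicate 3 by 1.17, the 4th highest such gap of 3579 genes. For CHS2 and UTR2 the gap was −0.73 and −0.70, the 33rd and 42nd lowest. Replicate 3 differed from the other arrays in dye orientation, in its cultures and in its number of measured spots, and these cannot be told apart. With a dye term in the fit, 0 of the 33 wall genes passed, and FKS1 had the lowest adjusted p, 0.321.

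**Figure D3:**
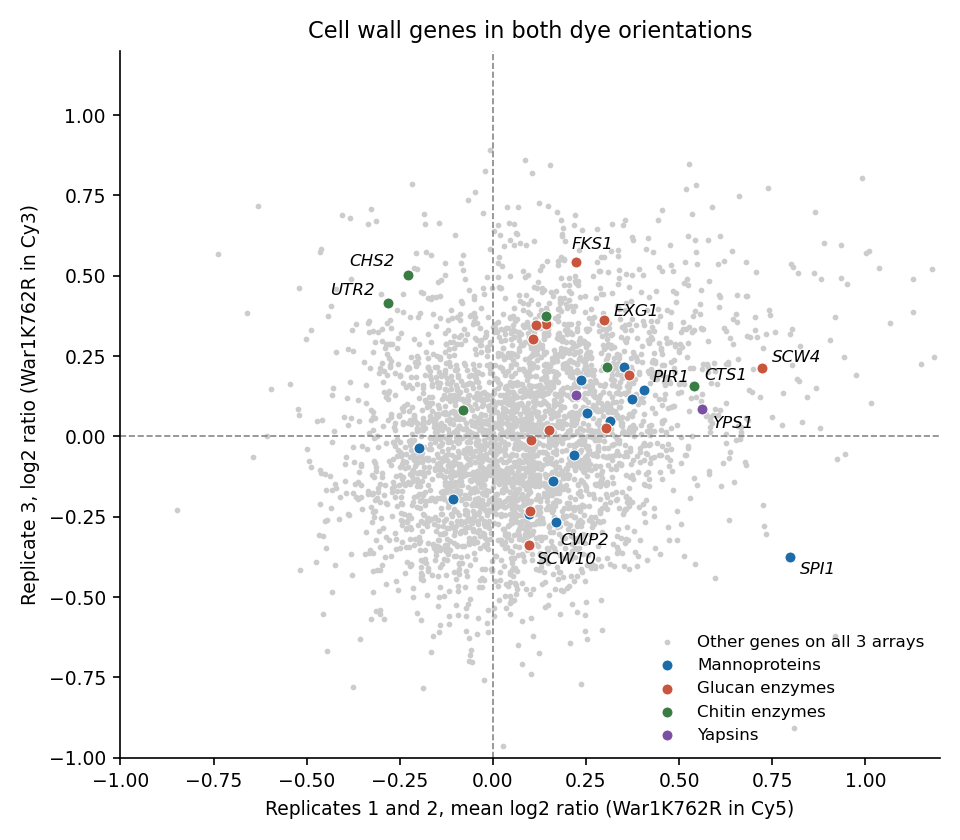
Each point is a gene on all 3 arrays, with the mean log2 ratio of replicates 1 and 2 (War1K762R in Cy5) on the x axis and that of replicate 3 (War1K762R in Cy3) on the y axis; 9 genes lie outside the axes. SPI1 lies at the lower right and CHS2 and UTR2 at the upper left, while SCW4, CTS1, YPS1, FKS1 and PIR1 are positive in both orientations.

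Other genes of the wall were read from lists that did not overlap the 34 genes. Of 134 genes tested in 7 lists, 2 passed as higher with War1K762R, against 1.22% of all genes tested, and 0 passed as lower, against 0.913% of all genes tested. Their median mean ratio was 0.08. At an unadjusted p under 0.05, 16 of the 134 were higher and 3 lower, against 9.13% and 7.76% of all genes tested. Of the 134, 95 were on all 3 arrays, and among all genes on 3 arrays 11.8% were higher and 2.71% lower. FIT1, a mannoprotein gene that helps to hold iron in the wall, was 1.68-fold higher, with 0.41, 1.07 and 0.77 (mean 0.75 ± 0.33, adjusted p = 0.0189). Its relatives FIT3 and FIT2 were also positive on all 3 arrays, with means of 0.58 and 0.37, and did not pass (adjusted p = 0.108 and 0.217). KNH1, a KRE9 homologue of glucan assembly, was 1.78-fold higher with 0.97 and 0.70 on replicates 1 and 2 and no value on replicate 3 (mean 0.83 ± 0.19, SD, n = 2, adjusted p = 0.0252). KNH1 was measured in 1 dye orientation only. The call of FIT1 ended on genes with values on all 3 arrays (adjusted p = 0.0648), with a dye term (0.168), without replicates 1, 2 and 3 in turn (0.124, 0.103 and 0.0657), with centring on the genes on all 3 arrays (0.0551), without centring (0.0692) and with the sign of replicate 3 turned (0.791). That of KNH1 ended with centring on those genes (0.0585), without centring (0.209) and, although it has no value there, with the sign of replicate 3 turned (0.142).

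The 28 other wall proteins had a median of 0.08, with DAN1, an anaerobic mannoprotein gene, at the lower end (−0.03, −0.01 and −0.76, mean −0.27). The 16 glucan assembly factors had a median of 0.09, and among those on 3 arrays the KRE6 homologue SKN1 had the highest mean, 0.29, and SMI1, a regulator of glucan synthesis, the lowest, −0.20. The list of chitin precursor supply and chitin synthase transport, which also holds CDA1, CDA2 and CRR1 from outside these roles, had 15 genes. Their median was −0.04. At an unadjusted p under 0.05, 3 of the 15 were higher and 3 lower, against 9.13% and 7.76% of all genes tested, and 0 passed (limma). Only 6 of the 15 had values on all 3 arrays. These shares depend on the arrays, since among genes on all 3 arrays they were 11.8% and 2.71%. The 3 lower genes, named after their values were seen, were BNI4 and SKT5, which place Chs3 at the bud neck, and CRR1, with means of −0.50, −0.47 and −0.39 (adjusted p = 0.148, 0.167 and 0.25). They had values on replicates 1 and 2 only, so strain and dye cannot be told apart for them. The 3 higher genes were BCH2, BCH1 and GFA1, with means of 0.40, 0.36 and 0.31 (adjusted p = 0.237, 0.2 and 0.256). BCH2 and GFA1 were likewise named after their values were seen, and BCH2 had values on replicates 1 and 2 only. Among the genes on 3 arrays BCH1, of the complex that exports Chs3 to the cell surface, had a mean of 0.36 and GNA1, of chitin precursor synthesis, one of −0.23, with −0.58, −0.42 and 0.30 on replicates 1, 2 and 3. GNA1 thus had the sign pattern of CHS2 and UTR2. FIT1 and KNH1 were the only genes of these 3 lists to pass.

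Of 26 genes of the cell wall integrity pathway 0 passed, against 2.14% of all genes tested (limma). At an unadjusted p under 0.05, 2 of the 26 were higher and 0 lower, against 9.13% and 7.76% of all genes, and their median was 0.10. The sensor gene WSC2 had the highest mean of those on 3 arrays, 0.24, and BEM2, a GTPase-activating protein gene, the lowest, −0.13. The 2 higher genes, named after their values were seen, were BAG7 and PTP2, with values on replicates 1 and 2 only. BAG7 had 1.40 and 0.11 (mean 0.76, adjusted p = 0.133) and PTP2 had 0.96 and −0.05 (mean 0.46, adjusted p = 0.295). SLT2 itself, named for its role after its values were seen, had −0.19, −0.18 and 0.03 (mean −0.11, adjusted p = 0.691). Of 31 mannosylation genes 0 passed, against the same 2.14%, with a median of 0.07. At an unadjusted p under 0.05 (limma), 4 of the 31 were higher and 0 lower, against 9.13% and 7.76% of all genes. Of the 31, 25 were on all 3 arrays, and among all genes on 3 arrays 11.8% were higher and 2.71% lower. PSA1, which makes the mannose donor, had 0.36, 1.39 and 0.03 (mean 0.59 ± 0.71, adjusted p = 0.154), high on replicate 2 as SCW4 was. MNN9, of mannan synthesis, had −0.29, −0.21 and −0.26 (mean −0.25 ± 0.04, adjusted p = 0.334). MNN5, named after its values were seen, had the lowest adjusted p of the list, with 0.61, 0.37 and 0.42 (mean 0.47 ± 0.13, adjusted p = 0.0808).

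Of 13 genes tested from the list of daughter cell separation 0 passed, against 2.14% of all genes tested (limma), with a median of 0.17. At an unadjusted p under 0.05, 2 of the 13 were higher and 0 lower, against 9.13% and 7.76% of all genes. Of the 13, 12 were on all 3 arrays, and among all genes on 3 arrays 11.8% were higher and 2.71% lower. ASH1, a daughter-specific repressor gene, had 0.69, 0.24 and 0.16 (mean 0.36, adjusted p = 0.215), and DSE3, of the bud neck, had the lowest mean of those on 3 arrays, −0.09. The 5 other aspartyl protease genes related to the yapsins had a median of 0.11 and 0 passed, against 2.14% (limma), while 1 of the 5 was higher and 0 lower at an unadjusted p under 0.05, against 9.13% and 7.76%, with MKC7 at 0.11 and YPS7 at −0.02.

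**Figure D4:**
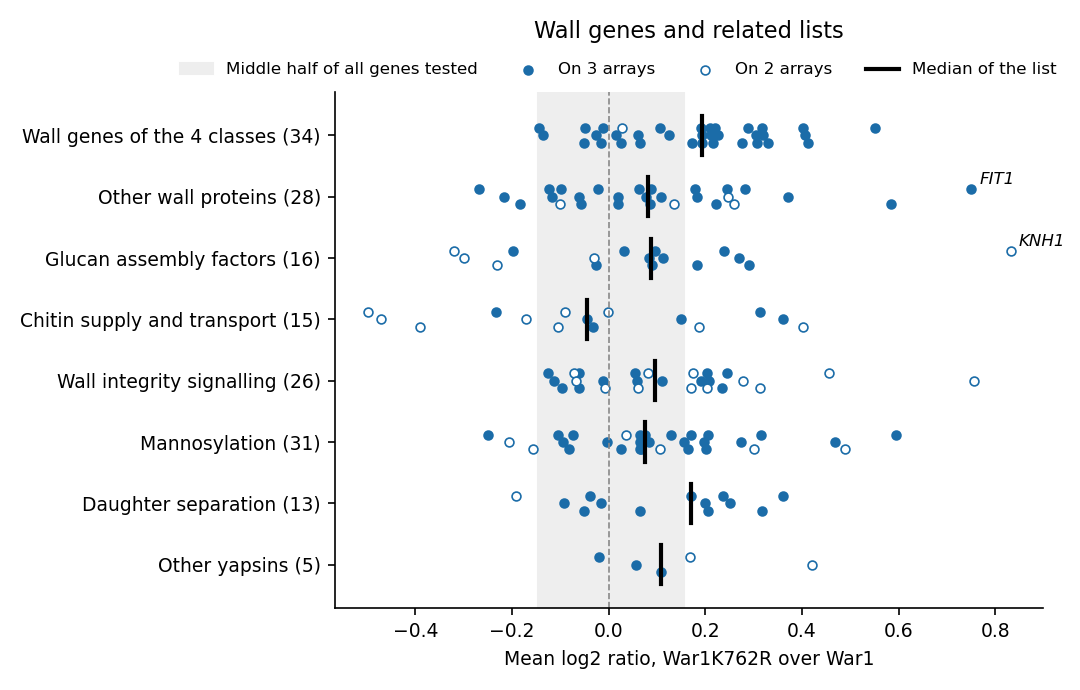
The x axis gives the mean log2 ratio of War1K762R over War1, with 1 point per gene, filled where it was measured on 3 arrays and open where on 2; lists run down the y axis with their number of genes tested. Black ticks are list medians and the grey band spans the quartiles of all genes tested; FIT1 and KNH1, which passed the test, are named.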

How the data were processed

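RNA of 2 strains was compared on 3 two-colour arrays. The values deposited by the authors are log2 ratios, 1 for each spot of an array. The steps that made them (scanning, filters, normalization) were not given in the sources used here. Below an absolute value of 0.5, the unlogged ratio was a 3-decimal number for 100% of values in replicates 1 and 2 and, in replicate 3, for 9.95% as deposited and 100% after a change of sign. Replicate 3 was therefore taken as already turned. Its sign turned once more was an alternative.

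Gene symbols came from the platform annotation and gene order from the RefSeq table of assembly R64; no coordinates are printed, since the array's build is not given. No sequences were used. Spots were centred on the array median and averaged per gene. Genes on at least 2 arrays were fitted with limma 3.58.1 in R 4.3.3 (lmFit, eBayes, two-sided, threshold 0.05), which was also tested on simulated data. The number of arrays limits the precision.

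The wall genes and lists were chosen with earlier results of these data known, and no test was run on a list. The text details the 3 highest and 3 lowest genes of the 2 larger classes, all chitin enzymes and yapsins, and genes with 1 sign on 3 arrays and a mean of at least 0.3; others are given by values alone. Of other lists it names genes past the threshold and the extremes on 3 arrays. FIT2, FIT3, PIR5, SLT2, BAG7, PTP2, BNI4, SKT5, CRR1, BCH2, GFA1 and MNN5 were added after their values were seen. The design text calls the arrays biological repeats.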

Additional observations from a re-analysis of the deposited data

How the results depend on the processing

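Each array holds both strains, so its ratio is already a paired comparison and the test of the mean ratio against 0 used that pairing. The replicates form 1 group, so no other pairing was possible. Over 10 alternatives the count of wall genes that passed stayed at 0, except for 1 higher without replicate 3 (range without 1 replicate, 0 to 1). The counts over all genes moved more: 67 higher and 50 lower became 12 and 1 on genes with values on all 3 arrays, 24 and 15 without centring, 21 and 26 with centring on genes on all 3 arrays, 132 and 81 with arrays scaled to the same median absolute deviation, 1 and 1 with replicate 3 turned once more, 2 and 1 with a dye term, and 1 to 46 and 1 to 34 without 1 replicate. Of the 117 calls, 60 higher and 2 lower were of genes on 3 arrays. The medians of the classes and their differences moved by less than 1 SD between arrays in every alternative. That SD rests on 3 arrays and is a loose measure, and signs still changed. The chitin enzyme median was −0.056 with replicate 3 turned once more. Mannoproteins minus chitin enzymes was −0.036 with a dye term and −0.064 without replicate 2. Glucan enzymes minus chitin enzymes was −0.071 without replicate 2. Mannoproteins minus glucan enzymes ran from −0.099 to 0.094 without 1 replicate.

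Means that crossed 0 were of genes that did not pass. With replicate 3 turned once more these were BGL2 0.14, CCW12 0.14, SCW10 0.18, CHS2 −0.32, CRH1 −0.031, FKS1 −0.033, GSC2 −0.039, SCW11 −0.022 and SIM1 −0.030. With centring on genes on all 3 arrays they were CHS2 −0.029, CWP2 −0.020 and EXG2 −0.036, and without centring EXG2 −0.027. With a dye term they were CHS3 0.0012, CWP2 −0.048 and UTR2 0.066, and with every spot measured CHS2 −0.23. Without 1 replicate, ranges crossed 0 for BGL2 (−0.090 to 0.099), CCW12 (−0.14 to 0.096), CCW14 (−0.077 to 0.16), CHS2 (−0.23 to 0.19), CHS3 (−0.080 to 0.043), CWP2 (−0.10 to 0.17), GAS3 (−0.11 to 0.21), SCW10 (−0.17 to 0.097), SUN4 (−0.023 to 0.35) and UTR2 (−0.28 to 0.12). The cause was not tested.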
